A study of Mus musculus with 9 samples.

Results

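Expression of 10 transcription factors that steer haematopoietic stem and progenitor cells towards the megakaryocyte and erythroid lineages was read from arrays of sorted long-term haematopoietic stem cells (LT-HSC). The factors were Fli1, Nfe2, Gata1, Gata2, Runx1, Tal1, Gfi1b, Zfpm1, Klf1 and Lmo2, which are 10 of the 22180 genes measured. Each had 1 probe set that carries 1 gene symbol, and where a gene had several, the brightest on average was used. All 10 lay in the brighter part of the genes, with means over the arrays between 6.69 and 9.19 on the log2 scale against a median of 5.76 over all genes.

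Megakaryocytes, which shed platelets, and erythroid cells, which become red cells, share a bipotent progenitor and many of their regulators. The GATA factors bind DNA together with Tal1, which recognises E-box motifs, and with Lmo2, a bridging protein without DNA binding of its own, while Zfpm1 (also called FOG-1) is a cofactor that binds the GATA proteins. Fli1, an ETS factor, favours the megakaryocyte fate and Klf1 the erythroid fate, and both factors are known to counteract each other. Several of the factors, among them Gata2, Runx1, Tal1, Lmo2, Fli1 and Gfi1b, are also at work in stem cells themselves.

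The cells came from C57BL/6 mice of 3 genotypes with 3 arrays each. Jak2VF_Ezh2KO mice carried MxCre, 1 conditional mutant Jak2 allele (Jak2VF/+) and the deletion of Ezh2 (EZH2-/-), Jak2VF mice carried MxCre and the mutant Jak2 allele, and the controls were wild type (WT). Jak2VF is the activated form of a kinase that signals for the erythropoietin and thrombopoietin receptors, and Ezh2 is the methyltransferase of Polycomb repressive complex 2. Mice were given 5 doses of 300 µg pI-pC at 4 weeks after birth. This agent induces Cre from the Mx promoter, which responds to interferon and acts beyond the stem cells. Marrow was harvested 12 weeks later, and LT-HSC were sorted by flow cytometry as Sca-1+ and c-kit+ cells that lacked lineage markers, CD34 and CD135. The sources used here do not say whether the WT mice carried MxCre, or whether a sample came from 1 mouse or from a pool, so the p-values measure the spread between these samples.

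Array medians lay between 5.51 and 5.67, and correlations between arrays lay between 0.898 and 0.968. Ezh2 averaged 8.32 ± 0.21 in Jak2VF_Ezh2KO, 8.91 ± 0.16 in Jak2VF and 8.66 ± 0.17 in WT (log2, SD, n = 3 each), and the difference of -0.59 between Jak2VF_Ezh2KO and Jak2VF had a limma adjusted p of 0.411. No source places this probe set inside or outside the deletion, so its level does not settle the labels. Jak2 differed by -0.46 between Jak2VF_Ezh2KO and Jak2VF. Stem cell markers were measured on every array, with ranges over the 9 arrays of 7.01 to 8.19 for Procr, 7.83 to 8.80 for Hlf and 9.43 to 10.18 for Kit, though some differed between genotypes. Procr differed by 0.90 between Jak2VF_Ezh2KO and Jak2VF (limma adjusted p = 0.0941) and by -0.64 between Jak2VF and WT, and Mllt3 by 0.35 and -0.56, each with no overlap between the groups. Meis1 went the other way in Jak2VF_Ezh2KO, by -0.38 against Jak2VF and -0.43 against WT. Its Jak2VF_Ezh2KO arrays of 9.49, 8.86 and 9.37 lay below the other 6. Of the 12 measured markers, 7 differences were positive and 5 negative for Jak2VF_Ezh2KO against Jak2VF. The mean of the 12 measured stem cell markers relative to WT was -0.06, -0.22 and -0.02 in Jak2VF_Ezh2KO, -0.27, -0.21 and -0.18 in Jak2VF, and -0.02, 0.02 and 0.01 in WT. The 1409 olfactory, vomeronasal and trace amine receptor genes, taken as a low-signal level, averaged 3.83 to 4.31 per array, and no factor read below 6.24 on any array. Replicates 1 and 2 of Jak2VF_Ezh2KO had a mean level of 3 Y-linked genes of 6.66 and 6.81, whereas Jak2VF_Ezh2KO replicate 3 had 3.73 and the other 6 arrays 3.64 to 4.08. Sex was thus not balanced between genotypes, and Gata1 lies on chromosome X. A sex covariate takes up both arrays with Y-linked signal, so Jak2VF_Ezh2KO replicate 3 alone then sets the level of its genotype.

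Promoter sequences are given for Klf1, the factor with the largest genotype difference, and for Gata2, one of those whose arrays separated genotypes, with the letters that the factors' own families recognise. RefSeq windows (GRCm38.p6) of 250 bases before a transcription start were at hand for 7 of the factors, in 10 windows, and were searched on both strands for 6 motifs. The GATA motif was spelled AGATAA, with TGATAA, then AGATAG, then TGATAG as its other spellings. The ETS motif was AGGAAG, with CGGAAG as its other spelling, and the RUNX motif was TGTGGT, with TGCGGT as its other spelling. The E-box was CAGNTG, the KLF motif CCNCNCCC and the NF-E2 motif TGAGTCA. Of all 32851 windows of this length, 26.5% held the GATA, 39.2% the ETS, 18.6% the RUNX, 44.8% the E-box, 45.9% the KLF and 4.46% the NF-E2 motif. Klf1 (chr8:84901732-84901981, plus strand) and Gata2 (chr6:88193641-88193890 and chr6:88198414-88198663, plus strand) are shown with matches in capitals, 5′ to 3′ up to the base before the start.
Klf1: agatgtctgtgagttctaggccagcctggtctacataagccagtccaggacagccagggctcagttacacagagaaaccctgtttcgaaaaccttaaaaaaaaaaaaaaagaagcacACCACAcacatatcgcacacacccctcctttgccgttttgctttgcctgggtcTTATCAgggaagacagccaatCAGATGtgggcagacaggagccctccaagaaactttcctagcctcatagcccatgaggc
Gata2 window 1: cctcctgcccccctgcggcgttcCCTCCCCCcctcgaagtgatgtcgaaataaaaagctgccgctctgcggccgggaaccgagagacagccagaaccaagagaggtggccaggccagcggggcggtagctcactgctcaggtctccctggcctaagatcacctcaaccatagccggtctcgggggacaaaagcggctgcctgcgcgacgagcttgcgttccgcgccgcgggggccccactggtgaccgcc
Gata2 window 2: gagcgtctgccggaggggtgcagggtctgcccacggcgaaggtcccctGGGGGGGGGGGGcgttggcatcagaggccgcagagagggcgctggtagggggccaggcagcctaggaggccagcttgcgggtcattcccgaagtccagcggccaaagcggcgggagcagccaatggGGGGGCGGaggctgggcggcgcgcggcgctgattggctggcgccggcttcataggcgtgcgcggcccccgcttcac
The Klf1 window held a GATA match on the reverse strand (TTATCA, first base 80 bases before the start), a RUNX match on the reverse strand (ACCACA, 133 bases before) and an E-box (CAGATG, 59 bases before). The Gata2 windows held KLF matches alone, 1 in the first and 6 in the second, of which 5 overlap in a run of G. Over the 7 factors, a GATA match was found for 3, an ETS match for 3, a RUNX match for 1, an E-box for 2, a KLF match for 6 and an NF-E2 match for 0. A factor was counted if any of its windows matched. Gata2, Runx1 and Tal1 had more than 1 window, so these counts are not on the scale of the shares per window. A match describes letters and not a bound site. Fli1, Nfe2 and Lmo2 had no window in the tables used here.

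Among the 10 factors, the largest differences between the genotypes with the mutant Jak2 allele were those of Fli1 and Klf1, in opposite directions. The arrays of these genotypes did not overlap for Fli1 and overlapped for Klf1. No factor passed a Benjamini-Hochberg adjusted p under 0.05 in any comparison (limma, 0 of 10 each), and each difference of a factor is therefore given as a value and not as a call. The share of all genes that passed was 0.0451% for Jak2VF_Ezh2KO against Jak2VF, 0.0225% for Jak2VF_Ezh2KO against WT and 0% for Jak2VF against WT. The smallest adjusted p of a factor was 0.512, 0.531 and 0.924 in these comparisons. Each array is a bulk sample, in which fewer cells of a type and less RNA per cell cannot be told apart.

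**Figure D1:**
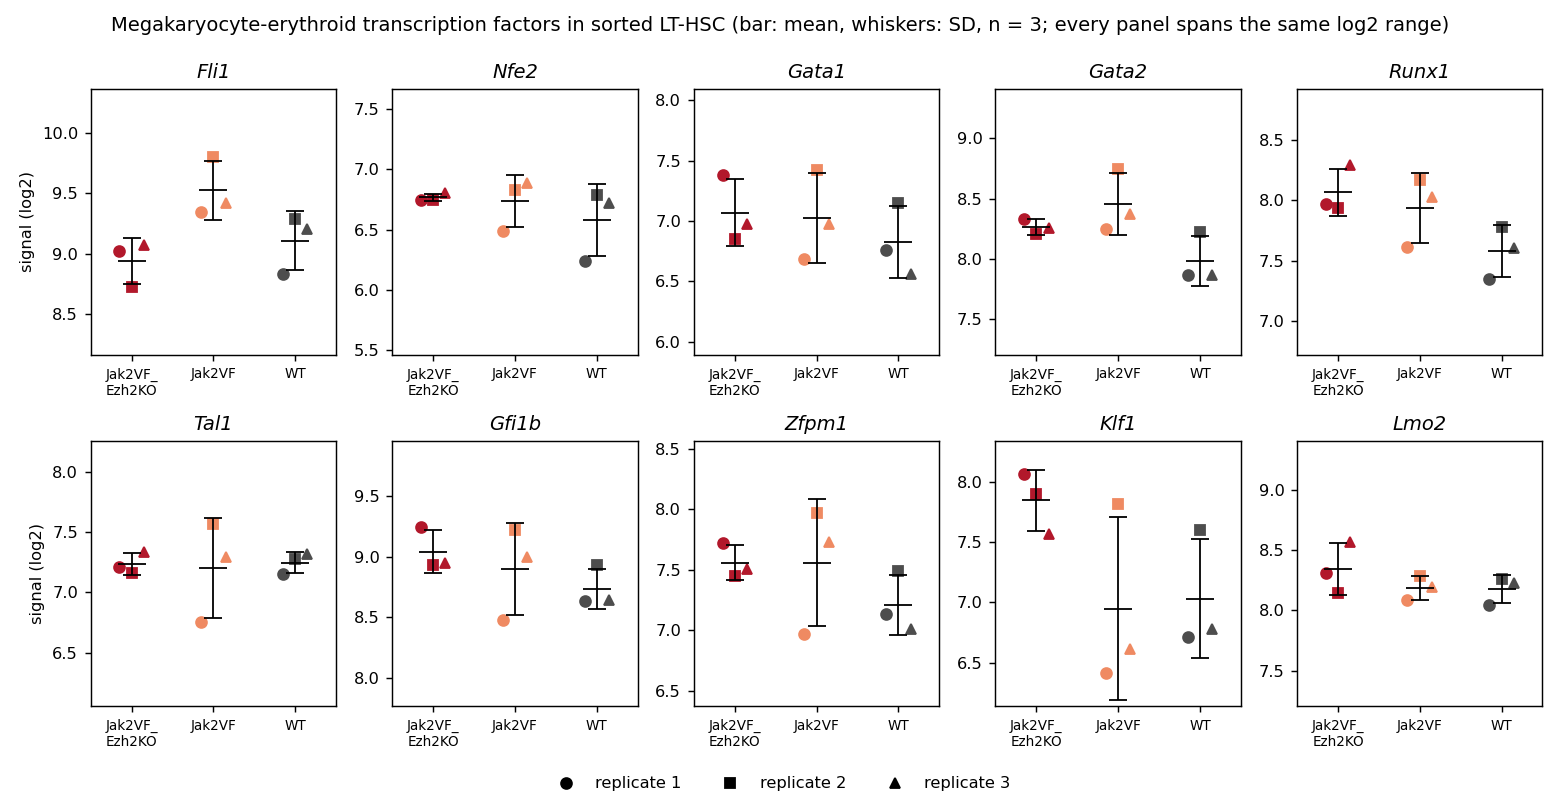
Log2 signal of each transcription factor in the 9 arrays (points, with the symbol giving the replicate), grouped by genotype, with the mean as a bar and the SD as whiskers (n = 3). The Jak2VF arrays sit above those of both other genotypes for Fli1, and the Jak2VF spread of Klf1, with an SD of 0.76, is the widest shown.

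The factors known best for megakaryocytes are Fli1 and Nfe2, together with Runx1. Fli1, which activates platelet glycoprotein genes, gave 9.03, 8.72 and 9.07 in Jak2VF_Ezh2KO, 9.35, 9.80 and 9.42 in Jak2VF, and 8.83, 9.29 and 9.20 in WT (log2, replicates 1 to 3). All 3 Jak2VF arrays lay above the other 6 arrays, and the Jak2VF_Ezh2KO arrays overlapped those of WT. The difference was -0.59 ± 0.18 (SE) for Jak2VF_Ezh2KO against Jak2VF, a 1.50-fold lower signal with a limma adjusted p of 0.512. It was 0.42 ± 0.18 for Jak2VF against WT (limma adjusted p = 0.924) and -0.17 ± 0.18 for Jak2VF_Ezh2KO against WT (limma adjusted p = 0.817). Both of the larger differences use the same Jak2VF arrays. Without Jak2VF replicate 2, the highest array, they were -0.45 and 0.28. With sex as a covariate the first was -0.46, a value that rests on Jak2VF_Ezh2KO replicate 3 alone.

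Nfe2, the larger subunit of the NF-E2 factor needed for platelet release, averaged 6.77 ± 0.03 in Jak2VF_Ezh2KO, 6.73 ± 0.22 in Jak2VF and 6.58 ± 0.30 in WT (SD, n = 3 each). The differences were 0.03 for Jak2VF_Ezh2KO against Jak2VF, 0.19 for Jak2VF_Ezh2KO against WT and 0.15 for Jak2VF against WT. The arrays of all 3 genotypes overlapped, and the 95% intervals of these differences lay within -0.35 to 0.57.

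Runx1, needed for stem cells to form in the embryo and for megakaryocytes to mature in the adult, gave 7.97, 7.94 and 8.29 in Jak2VF_Ezh2KO, 7.62, 8.17 and 8.03 in Jak2VF, and 7.35, 7.78 and 7.60 in WT. All Jak2VF_Ezh2KO arrays lay above all WT arrays, while the Jak2VF arrays overlapped both groups. The difference was 0.49 ± 0.18 (SE) for Jak2VF_Ezh2KO against WT, a 1.40-fold higher signal (limma adjusted p = 0.531), 0.13 for Jak2VF_Ezh2KO against Jak2VF and 0.36 for Jak2VF against WT.

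Among the GATA factors, Gata2 separated Jak2VF from WT, and Gata1 separated no pair of genotypes. Gata2, which maintains stem cells and early progenitors and is replaced by Gata1 as erythroid cells mature, gave 8.33, 8.21 and 8.26 in Jak2VF_Ezh2KO, 8.25, 8.75 and 8.37 in Jak2VF, and 7.87, 8.22 and 7.87 in WT. The lowest Jak2VF array was 8.25 and the highest WT array 8.22, so the separation rested on a narrow gap. The difference was 0.47 ± 0.16 (SE) for Jak2VF against WT, a 1.39-fold higher signal (limma adjusted p = 0.924), -0.19 for Jak2VF_Ezh2KO against Jak2VF and 0.28 for Jak2VF_Ezh2KO against WT.

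Gata1, the master regulator of erythroid and megakaryocyte genes, averaged 7.07 ± 0.28 in Jak2VF_Ezh2KO, 7.03 ± 0.37 in Jak2VF and 6.83 ± 0.30 in WT. Its differences were 0.04 for Jak2VF_Ezh2KO against Jak2VF, 0.24 for Jak2VF_Ezh2KO against WT and 0.20 for Jak2VF against WT, all with overlapping arrays. The highest Gata1 signals, 7.38 in Jak2VF_Ezh2KO replicate 1 and 7.42 in Jak2VF replicate 2, belonged to different genotypes. Zfpm1, the GATA cofactor, averaged 7.56 ± 0.15 in Jak2VF_Ezh2KO, 7.56 ± 0.52 in Jak2VF and 7.21 ± 0.25 in WT, a difference of 0.35 for each of the mutant genotypes against WT, with overlapping arrays. With 1 array left out in turn, the Jak2VF difference ranged from 0.14 to 0.64. The within-array log2 ratio of Gata1 to Gata2, set to 0 at the WT mean, was 0.21, -0.19 and -0.13 in Jak2VF_Ezh2KO, -0.41, -0.17 and -0.24 in Jak2VF, and 0.06, 0.09 and -0.14 in WT. All 3 Jak2VF arrays lay narrowly below all 3 WT arrays in this ratio, which was examined after the values were seen and is given as a description.

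Tal1 and Lmo2, the core of the complex that bridges GATA and E-box sites, separated no pair of genotypes. Tal1 averaged 7.24 ± 0.09 in Jak2VF_Ezh2KO, 7.20 ± 0.41 in Jak2VF and 7.25 ± 0.08 in WT. Lmo2 averaged 8.34 ± 0.21 in Jak2VF_Ezh2KO, 8.19 ± 0.10 in Jak2VF and 8.18 ± 0.12 in WT. No difference of either gene exceeded 0.17 in size, with 95% intervals within -0.47 to 0.49, and the pooled within-group SD of Lmo2, 0.15, was the lowest of the 10 factors. Gfi1b, a repressor needed in both lineages and for stem cell quiescence, averaged 9.04 ± 0.18 in Jak2VF_Ezh2KO, 8.90 ± 0.38 in Jak2VF and 8.73 ± 0.17 in WT. Its largest difference was 0.31 for Jak2VF_Ezh2KO against WT, with overlapping arrays.

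Klf1, the activator of globin, haem and red cell membrane genes, gave 8.07, 7.90 and 7.57 in Jak2VF_Ezh2KO, 6.41, 7.82 and 6.61 in Jak2VF, and 6.71, 7.60 and 6.78 in WT. Replicate 2 of Jak2VF and of WT lay within the range of the Jak2VF_Ezh2KO arrays, and the remaining 4 arrays of those genotypes lay below it. The difference was 0.90 ± 0.36 (SE) for Jak2VF_Ezh2KO against Jak2VF, a 1.86-fold higher signal (limma adjusted p = 0.683), and 0.81 ± 0.36 for Jak2VF_Ezh2KO against WT (limma adjusted p = 0.580). It was -0.08 ± 0.36 for Jak2VF against WT. The 95% interval of the first difference ran from 0.09 to 1.70. Its promoter window is the only one of the 10 searched with a RUNX match and one of 3 with a GATA match. Of all windows, 18.6% held the RUNX and 26.5% the GATA motif, and the part of these matches in its level was not tested. Klf1 varied more within genotypes than the other factors, with a pooled SD of 0.54 against a median of 0.22 over all genes. Its difference between Jak2VF_Ezh2KO and Jak2VF was 1.33 when Jak2VF replicate 2 was left out and 0.63 when replicate 1 of that genotype was. With sex as a covariate it was 0.62, a value that rests on Jak2VF_Ezh2KO replicate 3 alone. The part of sex in the level of Klf1 was not tested.

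**Figure D2:**
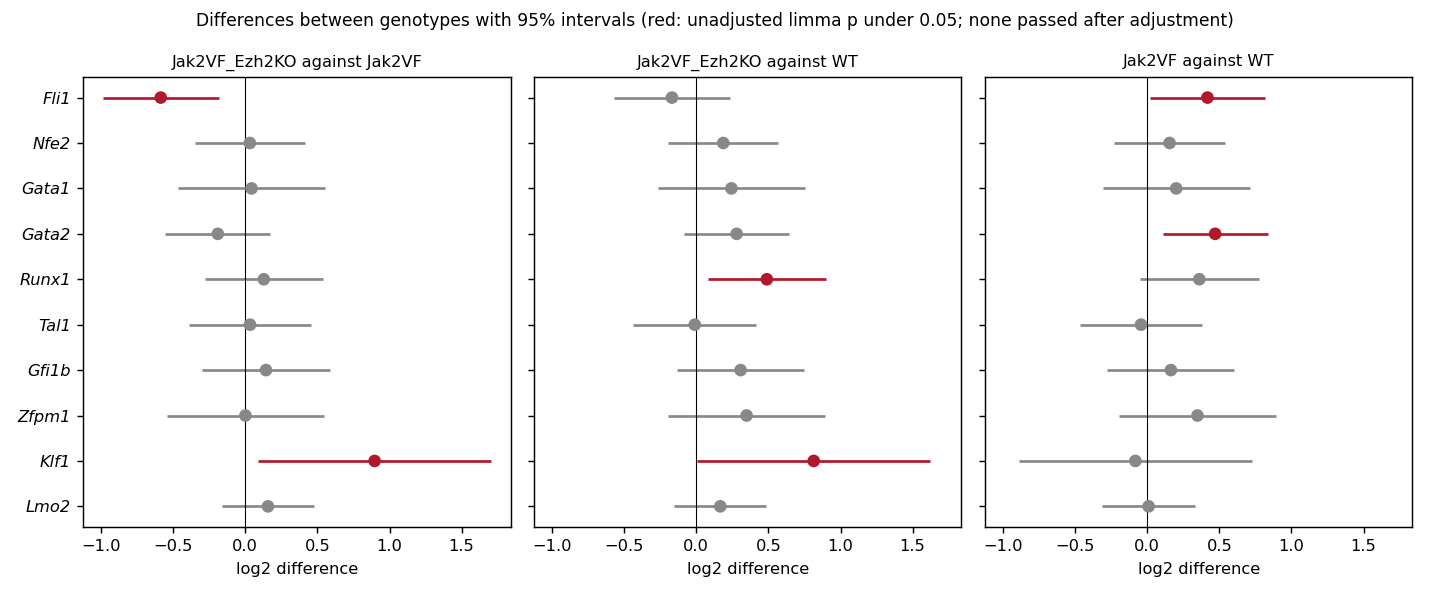
Log2 differences of the 10 factors (points, red where the unadjusted limma p was under 0.05) with 95% intervals for Jak2VF_Ezh2KO against Jak2VF, Jak2VF_Ezh2KO against WT and Jak2VF against WT. For Jak2VF_Ezh2KO against Jak2VF, Fli1 lies at -0.59 and Klf1 at 0.90, and the other 8 factors lie within -0.19 to 0.16.

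Few factors stood apart in any comparison, between 0 and 2 in a direction. At an unadjusted limma p under 0.05, 1 factor was above and 1 below for Jak2VF_Ezh2KO against Jak2VF (Klf1 and Fli1), where 2.91% and 3.99% of all genes were. For Jak2VF_Ezh2KO against WT 2 were above (Klf1 and Runx1) and 0 below, where 4.54% and 4.06% of all genes were. For Jak2VF against WT 2 were above (Fli1 and Gata2) and 0 below, where 2.85% and 1.81% of all genes were. Groups did not overlap for 1 factor in the comparison of Jak2VF_Ezh2KO with Jak2VF, for 1 with WT, and for 2 between Jak2VF and WT, against 11.1%, 12.9% and 6.11% of all genes. In each comparison 8 of the 10 differences were positive, where 41.8%, 46.5% and 55.8% of all genes were. For Jak2VF_Ezh2KO against Jak2VF this count rested on 1 array, since 2 of 10 were positive when Jak2VF replicate 1 was left out. It was 6 of 10 without Jak2VF_Ezh2KO replicate 1. For Jak2VF against WT the count ran from 6 of 10 without WT replicate 1 to 10 of 10 without Jak2VF replicate 1. The median difference of the factors was 0.04, 0.26 and 0.18, beside -0.04, -0.02 and 0.03 over all genes.

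Many factors were high or low together in single arrays. Jak2VF replicate 2 had the highest signal of all 9 arrays for Fli1, Gata1, Gata2, Tal1 and Zfpm1, and Jak2VF replicate 1 had the lowest for Tal1, Gfi1b, Zfpm1 and Klf1. The mean of the 10 factors relative to WT was 0.35, 0.16 and 0.29 in Jak2VF_Ezh2KO, -0.14, 0.54 and 0.20 in Jak2VF, and -0.18, 0.23 and -0.05 in WT. The Jak2VF arrays thus spanned both the lowest array outside WT and the highest array of all. The 19 measured cell cycle genes had means relative to WT of 0.16, 0.04 and 0.11 in Jak2VF_Ezh2KO, 0.23, 0.70 and -0.04 in Jak2VF, and -0.38, 0.34 and 0.04 in WT, so Jak2VF replicate 2 was also the highest array in that list. All 19 had positive differences for Jak2VF against WT, with a median of 0.32, although 0 passed the adjusted limma test and 1 had an unadjusted p under 0.05. With the cell cycle mean as a covariate, the Fli1 difference was -0.46 for Jak2VF_Ezh2KO against Jak2VF and 0.23 for Jak2VF against WT, and the Klf1 difference was 1.18 for Jak2VF_Ezh2KO against Jak2VF. The median of the factors for Jak2VF against WT was 0.04 with that covariate and 0.06 without Jak2VF replicate 2. The part of cell cycling in the factors' levels was not tested further. For Jak2VF_Ezh2KO against Jak2VF the median was 0.21 when Jak2VF replicate 2 was left out and -0.11 when replicate 1 of that genotype was.

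**Figure D3:**
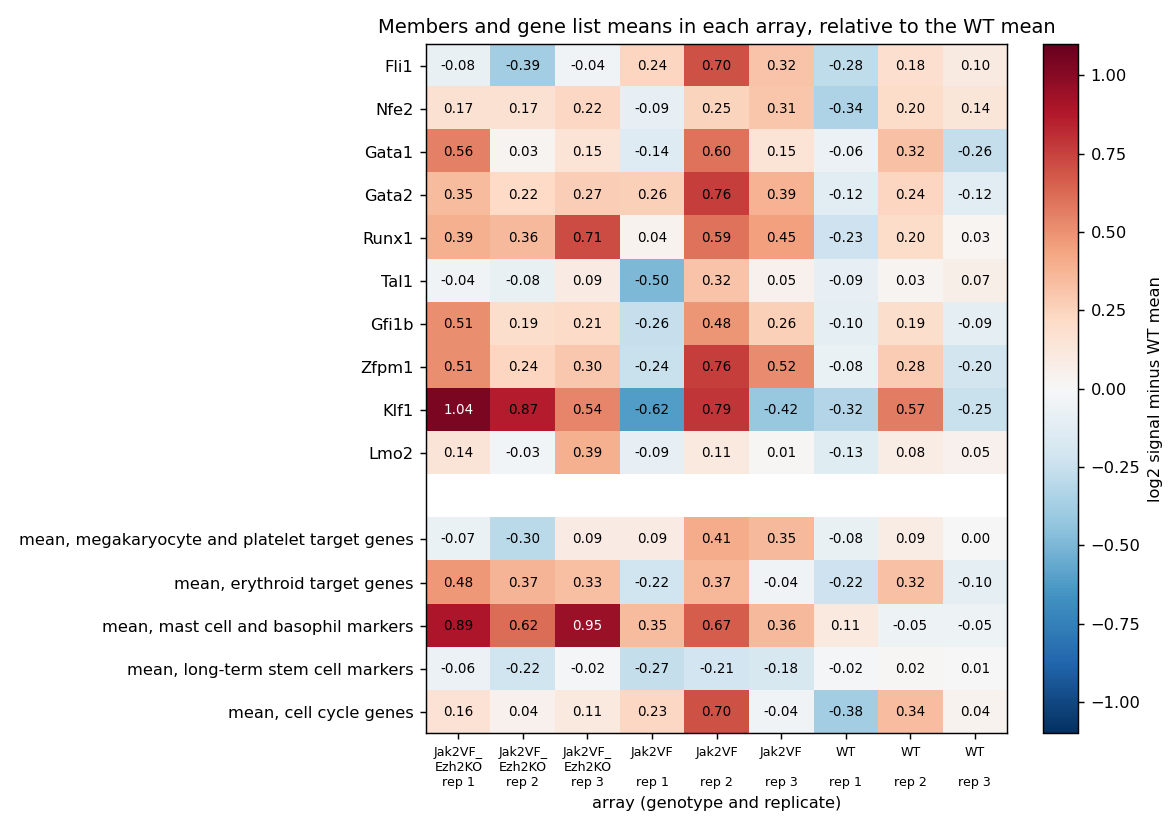
Log2 signal minus the WT mean for the 10 factors and for the means of 5 gene lists (without the factors) in each array, with genotypes and replicates along the bottom. Jak2VF replicate 2 is positive for all 10 factors, Klf1 is positive in all 3 Jak2VF_Ezh2KO arrays and Fli1 is negative in them.

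Klf1 and Fli1 were then set against each other within each array. The log2 ratio of Klf1 to Fli1, set to 0 at the WT mean, was 1.12, 1.25 and 0.58 in Jak2VF_Ezh2KO, -0.86, 0.09 and -0.73 in Jak2VF, and -0.04, 0.38 and -0.34 in WT. All 3 Jak2VF_Ezh2KO arrays lay above the other 6. The mean ratio was 0.98 ± 0.36 in Jak2VF_Ezh2KO and -0.50 ± 0.51 in Jak2VF (SD, n = 3 each), a difference of 1.48, or 2.79-fold. It exceeded that of WT by 0.98, or 1.98-fold. Without both arrays that had Y-linked signal, which leaves Jak2VF_Ezh2KO replicate 3 alone, the difference from Jak2VF was 1.08 and that from WT 0.58. The difference from Jak2VF was 1.64 with the cell cycle covariate. This pair was picked after the values were seen, so the ratio is a description with no test.

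**Figure D4:**
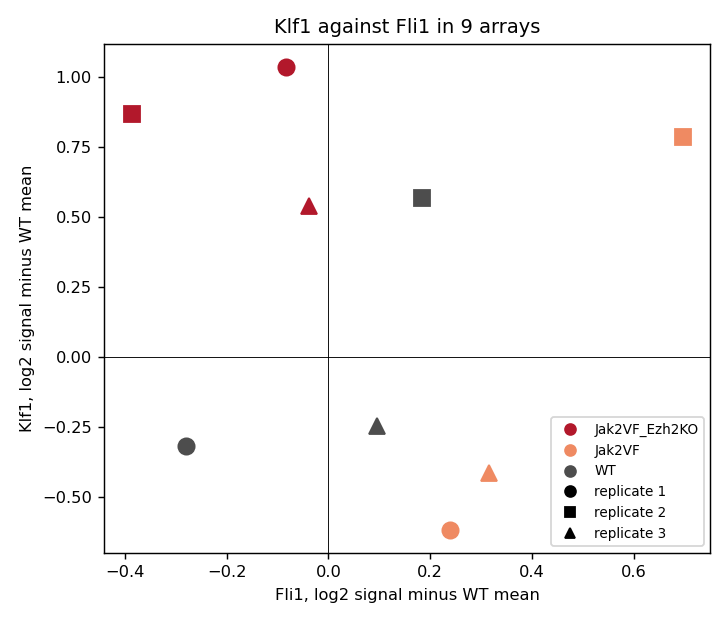
Klf1 against Fli1 in the 9 arrays, each as log2 signal minus the WT mean, with colour for genotype and symbol for replicate. The 3 Jak2VF_Ezh2KO arrays lie at positive Klf1 and negative Fli1 values, and 0 of the other 6 arrays do.

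Genes of megakaryocytes and platelets, listed as target genes of the factors, were measured for 22 of 26 on the list. Whether the factors regulate each of these genes was not tested. For Jak2VF_Ezh2KO against Jak2VF, 1 passed the adjusted test, and the 22 had 18 negative differences and a median of -0.32 (all genes -0.04). The median was -0.21 without Jak2VF replicate 2. Over all genes, 41.8% of the differences in this comparison were positive. At an unadjusted limma p under 0.05, 7 were below and 1 above, where 3.99% and 2.91% of all genes were. The mean of the list relative to WT was -0.07, -0.30 and 0.09 in Jak2VF_Ezh2KO, 0.09, 0.41 and 0.35 in Jak2VF, and -0.08, 0.09 and 0.00 in WT. Jak2VF_Ezh2KO replicate 2, the lowest array of this list, was also the lowest for Fli1. This is not particular to Fli1, as the same array was the lowest for Cbfb, Erg, Meis1, Hlf and Kit and the highest for Procr. Itga2b, the integrin subunit CD41 that forms part of the fibrinogen receptor of platelets, gave 7.08, 6.59 and 6.85 in Jak2VF_Ezh2KO, 8.07, 8.51 and 8.31 in Jak2VF, and 6.86, 7.41 and 7.10 in WT. It fell by 1.45 ± 0.19 (SE) on the log2 scale in Jak2VF_Ezh2KO against Jak2VF, a 2.74-fold lower signal (limma adjusted p = 0.0441). Its adjusted p lay between 0.0555 and 0.195 when each of the 9 arrays was left out in turn. No array could thus be removed without the loss of this call. The limma adjusted p was also 0.0714 with median centring, 0.0667 with the cell cycle covariate and 0.131 with the replicate block. It was 0.0257 with quantile normalization, 0.0389 with array weights and 0.0199 without the dimmer genes. The difference itself stayed between -1.57 and -1.33 with 1 array left out. It was -1.44 with the sex covariate, a value that rests on Jak2VF_Ezh2KO replicate 3 alone. For Jak2VF against WT its difference was 1.17 ± 0.19 (limma adjusted p = 0.308).

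The window before Itga2b (chr11:102469884-102470133, minus strand, GRCm38.p6) is shown because this gene passed the test, with matches to the same motifs in capitals.
Itga2b: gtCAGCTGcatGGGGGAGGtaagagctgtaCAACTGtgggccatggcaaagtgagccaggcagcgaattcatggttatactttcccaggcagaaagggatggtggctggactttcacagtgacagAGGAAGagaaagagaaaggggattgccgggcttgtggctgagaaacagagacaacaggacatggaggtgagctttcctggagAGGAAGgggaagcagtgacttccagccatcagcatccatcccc
It held ETS matches (AGGAAG) that begin 125 and 43 bases before the start, E-boxes that begin 248 and 220 bases before it and a KLF match on the reverse strand that begins 239 bases before it. The motif that Fli1 shares with other ETS factors is thus present in this window, as it is in 39.2% of all windows.

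Plek, the platelet signalling protein pleckstrin, differed by -1.39 ± 0.22 between Jak2VF_Ezh2KO and Jak2VF (limma adjusted p = 0.0938), and Gp5, a platelet glycoprotein, by -1.26 ± 0.30 (limma adjusted p = 0.357). All Jak2VF_Ezh2KO arrays lay below all Jak2VF arrays for both. Against WT, the Jak2VF_Ezh2KO arrays had a list median of -0.09. With sex as a covariate this median was 0.0052, a value that rests on Jak2VF_Ezh2KO replicate 3 alone. At an unadjusted limma p under 0.05, 4 genes were below and 0 above, where 4.06% and 4.54% of all genes were. Among the 4 were Vwf (-0.51), Gp6 (-0.56) and Mmrn1 (-0.59). For Jak2VF against WT the median was 0.19, with 7 above and 1 below at that p, where 2.85% and 1.81% of all genes were. The median was 0.32 without Jak2VF replicate 1. Plek differed by 0.84 and Mmrn1 by -0.73. Both comparisons of Jak2VF use the same arrays, so their values are set side by side only.

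Erythroid genes, listed as targets in the same way, were measured for 26 of 35 on the list, and the adult globin genes on it were not analysed here. Their median difference was 0.28 for Jak2VF_Ezh2KO against Jak2VF with 21 positive, 0.39 for Jak2VF_Ezh2KO against WT with 23 positive, and -0.03 for Jak2VF against WT with 13 positive. Over all genes the medians were -0.04, -0.02 and 0.03, with 41.8%, 46.5% and 55.8% positive. With 1 array left out in turn, the list medians ranged from 0.20 to 0.43, from 0.17 to 0.53 and from -0.08 to 0.15. The first was highest without Jak2VF replicate 2 and the second lowest without WT replicate 1. None passed the adjusted test (limma, 0 of 26), and at an unadjusted p under 0.05 there were 5, 8 and 2 above and 0 below in these comparisons. Of all genes, 2.91%, 4.54% and 2.85% were above and 3.99%, 4.06% and 1.81% below. Rhd, a red cell surface antigen, gave 7.48, 7.11 and 7.33 in Jak2VF_Ezh2KO, 5.80, 6.63 and 5.73 in Jak2VF, and 6.26, 7.13 and 6.10 in WT. Its difference was 1.26 ± 0.30 for Jak2VF_Ezh2KO against Jak2VF (limma adjusted p = 0.352), with no overlap between these groups. Blvrb, a reductase abundant in red cells, differed by 1.15 ± 0.33 and Tspan33, a tetraspanin of erythroid progenitors, by 1.05 ± 0.29 in the same comparison. Against WT, the haem enzymes Alad and Urod differed by 1.06 ± 0.27 and 0.81 ± 0.23 in Jak2VF_Ezh2KO (limma adjusted p = 0.400 and 0.447). WT replicate 2 and Jak2VF replicate 2 were each the highest of their genotype for the erythroid list mean, at 0.32 and 0.37 relative to WT, as they were for Klf1, while the Jak2VF_Ezh2KO arrays had 0.48, 0.37 and 0.33. The same holds for these arrays in the mean of all factors and in the cell cycle and immediate early lists, so it is not particular to Klf1 and erythroid genes.

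**Figure D5:**
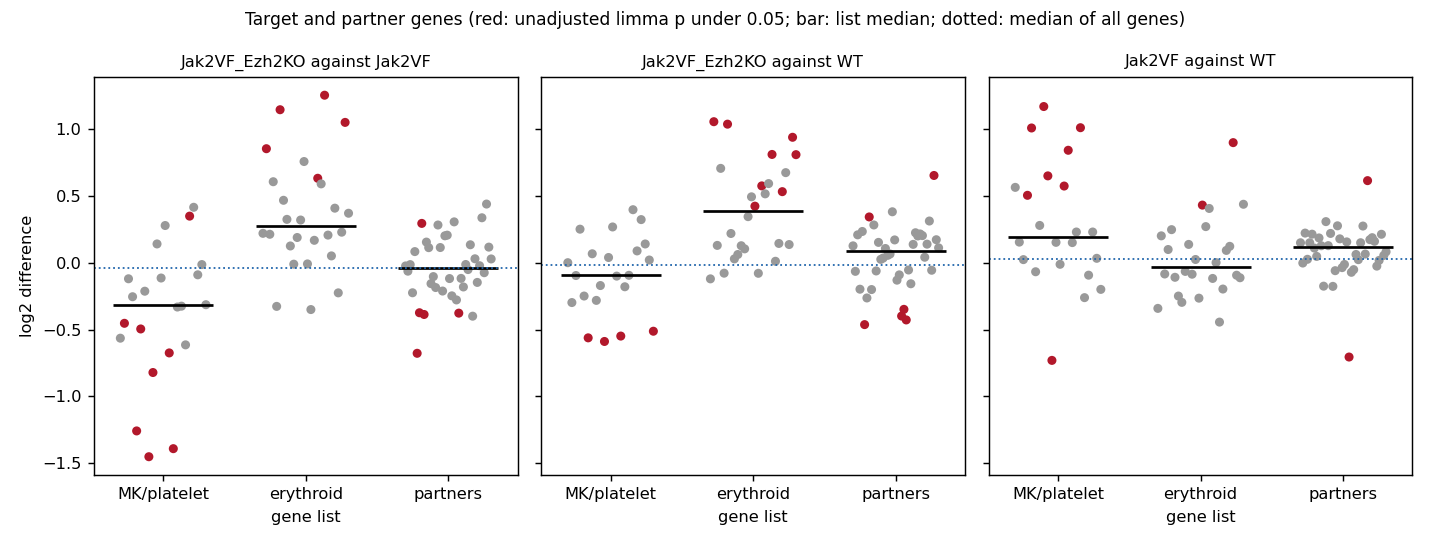
Log2 differences of single genes (points, red where the unadjusted limma p was under 0.05) in the megakaryocyte and platelet, erythroid and partner regulator lists for each comparison, with list medians as bars and the median of all genes dotted. For Jak2VF_Ezh2KO against Jak2VF the median is -0.32 for the megakaryocyte and platelet list and 0.28 for the erythroid list.

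Partners and relatives of the factors were measured for 38 of 40, and 0 passed the adjusted test in any comparison (limma). At an unadjusted p under 0.05, 1 was above and 4 below for Jak2VF_Ezh2KO against Jak2VF, 2 above and 4 below for Jak2VF_Ezh2KO against WT, and 1 above and 1 below for Jak2VF against WT. Of all genes, 2.91%, 4.54% and 2.85% were above and 3.99%, 4.06% and 1.81% below. The list medians were -0.04, 0.09 and 0.12, beside -0.04, -0.02 and 0.03 over all genes. Cbfb, the partner that stabilises Runx proteins on DNA, gave 8.13, 7.64 and 7.76 in Jak2VF_Ezh2KO, 8.50, 8.63 and 8.43 in Jak2VF, and 8.22, 8.48 and 8.22 in WT. All Jak2VF_Ezh2KO arrays lay below the other 6, with a difference of -0.68 ± 0.16 (SE) from Jak2VF (limma adjusted p = 0.317) and -0.46 ± 0.16 from WT (limma adjusted p = 0.492), whereas Runx1 itself differed by 0.13 and 0.49. The ETS factors Etv6 and Erg differed by -0.39 and -0.37 between Jak2VF_Ezh2KO and Jak2VF, beside -0.59 for Fli1, while the ETS factors Ets1 and Spi1 differed by 0.30 and 0.03. Tcf3, an E protein that pairs with Tal1, differed by 0.65 between Jak2VF_Ezh2KO and WT, where Tal1 differed by -0.01. Mecom, a stem cell regulator, had Jak2VF arrays of 6.91, 7.09 and 7.16 against WT arrays of 7.90, 7.55 and 7.83, a difference of -0.71 ± 0.15 (limma adjusted p = 0.863).

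Of the marker lists for other cells, that of mast cells and basophils had means in all 6 mutant arrays above those of all 3 WT arrays, and 1 of its genes passed the adjusted test. The 13 measured mast cell and basophil markers, a lineage that also uses Gata2 and Gata1, had means relative to WT of 0.89, 0.62 and 0.95 in Jak2VF_Ezh2KO, 0.35, 0.67 and 0.36 in Jak2VF, and 0.11, -0.05 and -0.05 in WT, and 3 of the 13 lay in the brighter part of the genes. The list went both ways, with 7 differences positive and 6 negative for Jak2VF_Ezh2KO against Jak2VF. They were 10 and 3 for Jak2VF_Ezh2KO against WT, and 9 and 4 for Jak2VF against WT. Over all genes, 41.8%, 46.5% and 55.8% of the differences were positive. Cma1, a mast cell chymase, rose by 1.63 ± 0.20 (SE) against Jak2VF and by 1.67 ± 0.20 against WT in Jak2VF_Ezh2KO (limma adjusted p = 0.0441 and 0.0459). It was not among the brighter genes, with arrays of 6.91, 6.49 and 6.35 in Jak2VF_Ezh2KO and between 4.64 and 5.15 in Jak2VF and WT. Without both arrays that had Y-linked signal, which leaves Jak2VF_Ezh2KO replicate 3 alone, the Cma1 differences were 1.39 and 1.44. With each of the 9 arrays left out in turn, the adjusted p stayed under 0.05 in 1 and 2 cases. Mcpt8, a basophil protease, differed by 2.24 between Jak2VF_Ezh2KO and WT (limma adjusted p = 0.081). The 15 neutrophil, monocyte and macrophage markers had means of 0.34, -0.17 and 0.90 in Jak2VF_Ezh2KO, -0.01, 0.22 and 0.55 in Jak2VF, and 0.14, 0.21 and -0.35 in WT. The 14 immediate early and heat shock genes had means of 0.24, 0.41 and 1.22 in Jak2VF_Ezh2KO, 0.06, 0.63 and 0.13 in Jak2VF, and -0.03, 0.37 and -0.34 in WT. Jak2VF_Ezh2KO replicate 3 was the highest array in both lists and in the 13 B, T and NK cell markers, at 0.74, and it had the highest Runx1 and Lmo2. The mean of the 13 endothelial and stroma markers lay between -0.12 and 0.12 in every array, over genes that went both ways. Among them, Emcn differed by 1.097 between Jak2VF_Ezh2KO and Jak2VF and by -1.40 between Jak2VF and WT, and Pdgfrb by -0.52 and 0.91, each with no overlap between the groups and none past the adjusted test. The part of these markers in the levels of the factors was not tested.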

How the data were processed

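The authors deposited log2 values of 41345 probe sets on 9 Affymetrix mouse gene arrays, and this scale was read from the values. The submitters' processing notes name Partek 6.6, while no source used here states the background correction or normalization. The values were used as deposited, and precision is limited by having 3 arrays per group. Of the probe sets, 23521 had 1 gene symbol, 1814 several and 16010 were unnamed here, which left 22180 genes. The table used holds no detection calls.

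All 9 arrays entered 1 limma 3.58.1 fit (R 4.3.3, lmFit and eBayes, 3 contrasts), which was tested on simulated data, with Benjamini-Hochberg adjustment over all genes and a threshold of 0.05. Values after ± are SD for means and SE of the moderated fit for differences. The 10 factors, the ratios and the 11 gene lists (209 genes, 188 measured) were chosen with earlier results of these data known. The factors were left out of the lists. Genes named from a list are among the 3 with the smallest unadjusted p in a contrast, except Hlf, Kit and Spi1, chosen after their values were seen, and Ezh2 and Jak2 served as label checks. Alternatives were other scalings, variance models, filters, covariates, a replicate block and leaving out each array.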

Additional observations from a re-analysis of the deposited data

How the results depend on the processing

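Of 660 differences of the 10 factors under 22 alternatives, 30 changed sign, 0 of them among those over 0.2 in size, and 0 factors passed the adjusted limma test under any alternative (smallest adjusted p 0.214). Many of the 660 could not change. The variance models, the filter, the 2 groups alone, every probe set tested, the replicate block and the other p threshold return the main difference. Leaving out an array of the genotype outside a comparison does so too, as do both alternatives for sex in Jak2VF against WT. The share that changed sign thus understates how far the differences can move. Signs turned for Lmo2 in Jak2VF against WT (-0.14 with quantile normalization, -0.011 with array weights, -0.0645 with the cell cycle covariate). For Jak2VF_Ezh2KO against Jak2VF they turned for Gata1 and Zfpm1 (-0.0535 and -0.0519, both with the sex covariate and without both arrays that had Y-linked signal), and for Jak2VF_Ezh2KO against WT for Tal1 (0.0221 with median centring, 0.0880 with the sex covariate and without those arrays). With 1 array left out in turn, Jak2VF against WT ranged from -0.0153 to 0.28 for Nfe2, -0.22 to 0.18 for Tal1, -0.52 to 0.20 for Klf1 and -0.0575 to 0.0613 for Lmo2. Jak2VF_Ezh2KO against Jak2VF ranged from -0.0912 to 0.11 for Nfe2, -0.13 to 0.24 for Gata1, -0.0335 to 0.24 for Runx1, -0.19 to 0.21 for Tal1, -0.0672 to 0.30 for Gfi1b and -0.29 to 0.21 for Zfpm1, and Jak2VF_Ezh2KO against WT from -0.0598 to 0.0264 for Tal1. Over all genes, the 10 that passed for Jak2VF_Ezh2KO against Jak2VF became 0 with ordinary least squares, the 2 groups alone, every probe set tested, the replicate block or both arrays with Y-linked signal left out, 4 with the cell cycle covariate, 19 without the dimmer genes, 23 at an adjusted p under 0.1, and 0 to 17 with 1 array left out. The 5 for Jak2VF_Ezh2KO against WT became 0 with ordinary least squares, the 2 groups alone, every probe set tested, the replicate block, both arrays with Y-linked signal left out or the cell cycle covariate, 3 with median centring, 8 with quantile normalization, 10 with an intensity trend, 14 with array weights, 13 at an adjusted p under 0.1, and 0 to 14 with 1 array left out. The causes were not tested. Jak2VF against WT gave 0 throughout. The replicate numbers did not pair the arrays throughout. In their deviations from group means, same-numbered arrays correlated between -0.23 and 0.48, over 0.1 in 2 of 9 pairs. Both of these pairs were WT with Jak2VF, at 0.21 for replicate 1 and 0.48 for replicate 2, while replicate 3 gave -0.23. The replicate block left 0 factors called. Another probe set per factor was not run, since each has 1. Signal over background was judged only against receptor genes, as the table has no detection calls.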
